A study of Mus musculus with 550 samples.

Results

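The comparison covers the jejunum, the middle stretch of the small intestine, of C57BL/6 mice 6 h after a single dose of dimethyl fumarate (DMF), a fumaric acid diester, at 179.2 mg/kg or of its vehicle, 0.8% hydroxypropyl methylcellulose. The 16 arrays were chosen by the organ, time and treatment in their titles, 8 for DMF 179.2 mg/kg and 8 for vehicle, out of 550 arrays of 7 organs in the series. The other jejunum groups at 6 h held 4 arrays of DMF 100 mg/kg, 5 of mixed calcium, magnesium and zinc salts of monoethyl fumarate (MEF) at 79.2 mg/kg, and 5 of DMF 100 mg/kg together with the MEF salts at 79.2 mg/kg. The series design describes separate mice in each dose group. Age and sex are not given in the sources used here, and 1 time point after 1 dose limits the groups as a model of treatment. Messenger RNA was measured on oligonucleotide arrays, and 17097 genes were tested, each by 1 probe set. A level below is the deposited log2 summary of that probe set, and it can be compared between arrays but not between genes.

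DMF is an electrophile that reacts with thiol groups. It is used in psoriasis and multiple sclerosis, and it is known to modify cysteines of KEAP1, the protein that otherwise marks the transcription factor NRF2 (gene Nfe2l2) for degradation. Stabilized NRF2 pairs with small MAF proteins on antioxidant response elements and raises genes for quinone reduction, glutathione synthesis and conjugation, NADPH supply and drug efflux. The epithelium of the jejunum can meet an oral compound, and its enterocytes hold esterases, glucuronosyltransferases and efflux pumps that process it.

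Promoters of 4 quinone and carbonyl reductase genes are shown here because Cbr3 and Akr1b8 had the highest changes among the brighter genes, Akr1c19 had the next within this family, and Nqo1 is a usual marker of NRF2 activity. Each window runs from 250 bases before to 50 bases after the start of the gene, from RefSeq on build GRCm38.p6, 5′ to 3′ on the strand of the gene. It was searched on both strands for TGACNNNGC, the core letters of the antioxidant response element, and a match is in capitals. The windows are Cbr3 at chr16:93682969-93683268 (plus strand), Akr1b8 at chr6:34353896-34354195 (plus strand), Akr1c19 at chr13:4233490-4233789 (plus strand) and Nqo1 at chr8:107403156-107403455 (minus strand).
Cbr3: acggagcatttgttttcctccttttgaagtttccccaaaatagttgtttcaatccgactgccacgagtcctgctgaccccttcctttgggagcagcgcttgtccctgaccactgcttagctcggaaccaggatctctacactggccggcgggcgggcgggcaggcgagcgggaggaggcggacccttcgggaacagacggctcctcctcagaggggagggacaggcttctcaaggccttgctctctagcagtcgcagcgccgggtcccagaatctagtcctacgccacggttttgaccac
Akr1b8: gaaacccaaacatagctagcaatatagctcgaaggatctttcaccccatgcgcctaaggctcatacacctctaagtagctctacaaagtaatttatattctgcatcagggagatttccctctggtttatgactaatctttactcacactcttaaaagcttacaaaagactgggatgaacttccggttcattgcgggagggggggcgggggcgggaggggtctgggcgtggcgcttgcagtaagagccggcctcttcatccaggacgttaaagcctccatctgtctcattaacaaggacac
Akr1c19: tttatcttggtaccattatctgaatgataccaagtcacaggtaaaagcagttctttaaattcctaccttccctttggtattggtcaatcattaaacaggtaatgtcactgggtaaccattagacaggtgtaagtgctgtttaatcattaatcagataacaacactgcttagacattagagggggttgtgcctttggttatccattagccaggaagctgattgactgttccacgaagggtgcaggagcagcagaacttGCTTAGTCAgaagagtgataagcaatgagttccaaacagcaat
Nqo1: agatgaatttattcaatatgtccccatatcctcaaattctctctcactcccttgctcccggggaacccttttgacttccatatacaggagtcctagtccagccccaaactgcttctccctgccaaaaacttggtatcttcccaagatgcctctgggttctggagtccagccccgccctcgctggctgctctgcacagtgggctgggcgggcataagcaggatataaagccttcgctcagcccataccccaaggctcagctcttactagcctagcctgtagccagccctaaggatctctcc
The Akr1c19 window holds 1 match, on the minus strand at bases 258 to 266 of the window, which lie after the start of the gene. The letters were not found in the other windows shown. Sequence outside the windows was not searched, so a missing match says nothing about elements farther from the start. Of all 32851 windows, 12.4% hold a match. By gene, a match was present for 159 of the 796 called higher genes with a window (20.0%), for 59 of the 412 called lower genes (14.3%) and for 2193 of all 13605 tested genes with a window (16.1%). A match is a description of letters and no evidence of binding.

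The segment markers named for this comparison varied widely inside both groups. Fabp6, the bile acid binding protein of the distal small intestine, read 11.52, 12.17, 3.46, 4.98, 3.4, 10.54, 9.53 and 12.34 on the DMF 179.2 mg/kg arrays with running numbers 67 to 74, and 6.83, 4.07, 13.43, 8.85, 13.16, 5.15, 11.41 and 13.04 on the vehicle arrays with running numbers 51 to 58. Gata4, the transcription factor of the proximal small intestine, read 9.27 to 9.99 with DMF 179.2 mg/kg and 8.79 to 10.21 with vehicle. The arrays with Fabp6 above 9 had Gata4 at 9.58 or lower, and those with Fabp6 below 9 had it at 9.72 or higher, so segment marker levels differed between arrays of the same group. Neither marker differed between the groups by limma's test (Fabp6 log2 change −1.0 ± 1.65, FDR 0.905, and Gata4 0.15 ± 0.49, FDR 1.0). Each log2 change is given with its standard error, and FDR is the Benjamini-Hochberg adjusted p over all genes. The bile acid carrier Slc10a2, also of the distal small intestine, read 5.43 to 9.18 with DMF 179.2 mg/kg and 5.35 to 10.31 with vehicle. The distal homeobox genes Hoxb6 and Hoxb9 were at 4.04 or lower on all 16 arrays. Of 7 proximal markers 1 was called higher, the carrier gene Slc5a4b described below with the absorption genes. Of 12 distal markers 1 was called lower, and that call was lost without any 1 of 12 arrays (DMF 179.2 mg/kg arrays 67 to 72 and vehicle arrays 53 to 58), within the shared places and with Fabp6 as a covariate.

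**Figure D1:**
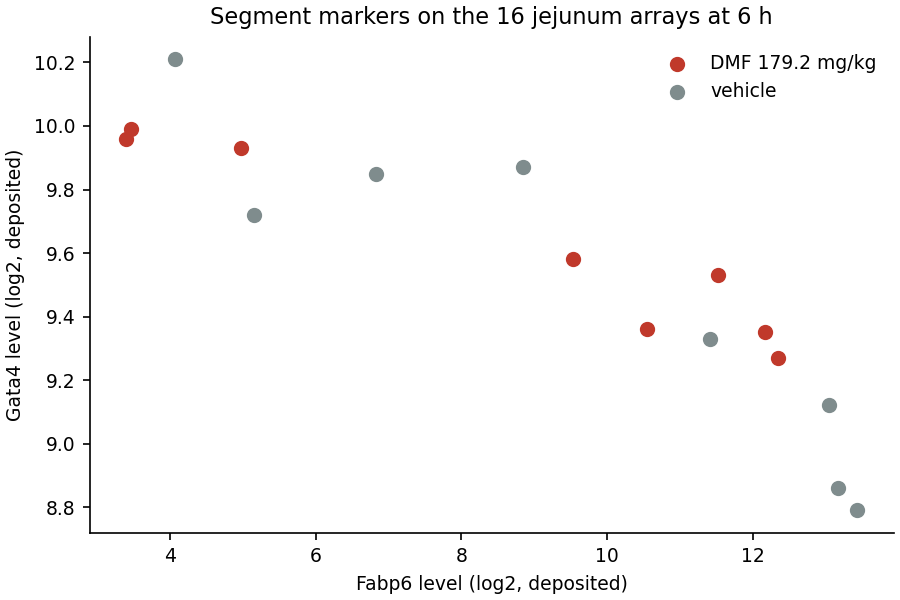
Level of Gata4 (vertical axis, log2) against the level of Fabp6 (horizontal axis, log2) on the 16 arrays, 1 point per array, DMF 179.2 mg/kg in red and vehicle in grey. Fabp6 spans 3.4 to 12.34 with DMF 179.2 mg/kg and 4.07 to 13.43 with vehicle, and the arrays with high Fabp6 have low Gata4 in both groups.

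A second feature of the arrays is the place of their running number, the last number of each sample title, in successive runs of 12. The labels do not say what the number stands for. They do not give runs of 12 either: that length was a setting of the re-analysis, and the places and shared places below rest on it. Vehicle arrays hold places 1 to 8 and DMF 179.2 mg/kg arrays places 5 to 12, so 4 arrays of each group share places 5 to 8. Splicing regulator Tra2b averaged 6.06 with DMF 179.2 mg/kg and 6.89 with vehicle at the shared places, 5.02 with DMF 179.2 mg/kg at places 9 to 12 and 7.62 with vehicle at places 1 to 4, and thus fell along the numbers inside each group. Results are given below also with place as a covariate, and within the shared places, where fewer arrays leave fewer calls.

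Tissue markers fitted small intestine, while the segment markers above varied between arrays of a group. Enterocyte genes were bright, with the fatty acid binding protein Fabp2 at 14.24 with DMF 179.2 mg/kg and 14.20 with vehicle and villin Vil1 at 13.25 in both groups. None of the 7 measured enterocyte markers was called, and neither were any of the 12 enteroendocrine, 7 tuft, 7 T cell, 8 macrophage, 6 B and plasma cell, 8 fibroblast, 6 smooth muscle or 7 endothelial markers. Of 7 goblet cell markers 1 was called lower, the trefoil factor gene Tff3 (log2 change −0.07 ± 0.02, FDR 0.0397), and of 7 markers of enteric neurons and glia 1 was called higher, the synaptic gene Snap25 (0.57 ± 0.19, FDR 0.0402). The Tff3 call was lost without any 1 of DMF 179.2 mg/kg arrays 69, 70, 71 and 73 or vehicle arrays 51, 53, 55 and 57 (FDR up to 0.11). The Snap25 call was lost without any 1 of DMF 179.2 mg/kg arrays 71 and 73 or vehicle arrays 52, 54, 56 and 58, and its change was 0.29 (FDR 0.229) without array 71. Neither was called with place as a covariate or within the shared places. Other cell types were mixed in level. Of 8 neutrophil markers 3 were at the floor on all 16 arrays, and the mean level of the list was 2.37 to 2.60 with DMF 179.2 mg/kg and 2.39 to 2.42 with vehicle. Of 7 mast cell markers 1 was at the floor throughout, with Mcpt4 and Cpa3 at 2.15 in both groups, while the stem cell factor receptor Kit averaged 6.10 with DMF 179.2 mg/kg and 6.26 with vehicle. Of 9 pancreatic acinar markers 3 were at the floor throughout, Prss2 among them, while the colipase gene Clps averaged 11.86 with DMF 179.2 mg/kg and 11.96 with vehicle, and the elastase gene Cela1 7.54 and 7.26 in the same groups. None of these 3 lists held a called gene. Adipocyte genes were present, with Adipoq at 9.44 with DMF 179.2 mg/kg and 9.12 with vehicle. Of the 8 crypt stem markers, Tnfrsf19 (log2 change −0.73 ± 0.18, FDR 0.00384) and Lgr5 (−0.81 ± 0.26, FDR 0.0336) were called lower, where 3.01% of all genes were. Olfm4, another stem marker, stood at 11.50 with DMF 179.2 mg/kg and 11.48 with vehicle. Lgr5 was no longer called without any 1 of DMF 179.2 mg/kg arrays 69, 70 and 71 or vehicle arrays 51, 53, 55 and 57, with an FDR of up to 0.104. Lgr5 was also not called in the fits of the 2 groups and of the 6 h groups alone, and neither stem marker was called within the shared places. Fewer cells of a type and less RNA per cell cannot be told apart in such whole-tissue arrays.

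Of 17097 genes, 958 were called higher with DMF 179.2 mg/kg (5.60%) and 515 lower (3.01%), at an FDR below 0.05. The rises were the larger changes: 43 of the higher genes but 9 of the lower ones moved by more than 1 log2 unit, and the medians were 0.33 and −0.29. Every DMF 179.2 mg/kg array lay above every vehicle array for 175 genes (1.02%), and below every one for 57 genes (0.333%). Inside the shared places 178 genes were called higher (1.04%) and 40 lower (0.234%). With place as a covariate 5.22% of genes were called higher and 1.99% lower. Of the 958 higher genes 612 were also called higher with place as a covariate, with a median change of 0.33, and 166 within the shared places, with a median of 0.29. Of the 515 lower genes the counts were 233, with a median of −0.23, and 26, with a median of −0.20. A further quantile normalization turned the split round, to 613 higher and 804 lower (43.3% higher, against 65% here). The medians of the same 958 and 515 genes were then 0.28 and −0.32, so their order in size turned round too. The Fabp6 level of each array as a covariate was an alternative chosen after seeing the data. With it 937 of the 958 higher genes and 502 of the 515 lower genes were still called. That fit called more genes in all, 1139 higher and 593 lower.

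All 12 of the highest changes among the brighter genes were enzymes of 10 lists that handle electrophiles and drugs, or proteins listed with them: Cbr3, Akr1b8, Ces1g, Akr1c19, Pir, Ugt2b5, Ces1f, Gstm1, Ugt2b35, Gstm4, Gsta2 and Gclc. None of them overlapped between the groups, and all 12 were also called with place as a covariate and within the shared places. Together the 10 lists held 151 measured genes, of which 65 were called higher (43%, against 5.60% of all genes) and 2 lower (3.01% of all genes were). The lists were written with earlier results of these data known, so these shares are a description and no test. Of these 65 higher genes 28 rose by more than 1 log2 unit, and 65 kept the call with Fabp6 as a covariate. For 38 of them every DMF 179.2 mg/kg array lay above every vehicle array, as for 1.02% of all genes. The call held for 54 with place as a covariate, for 39 within the shared places, and for 58 whichever single array was left out. The median log2 change over the 151 genes was 0.22, against 0.00 over all genes.

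**Figure D2:**
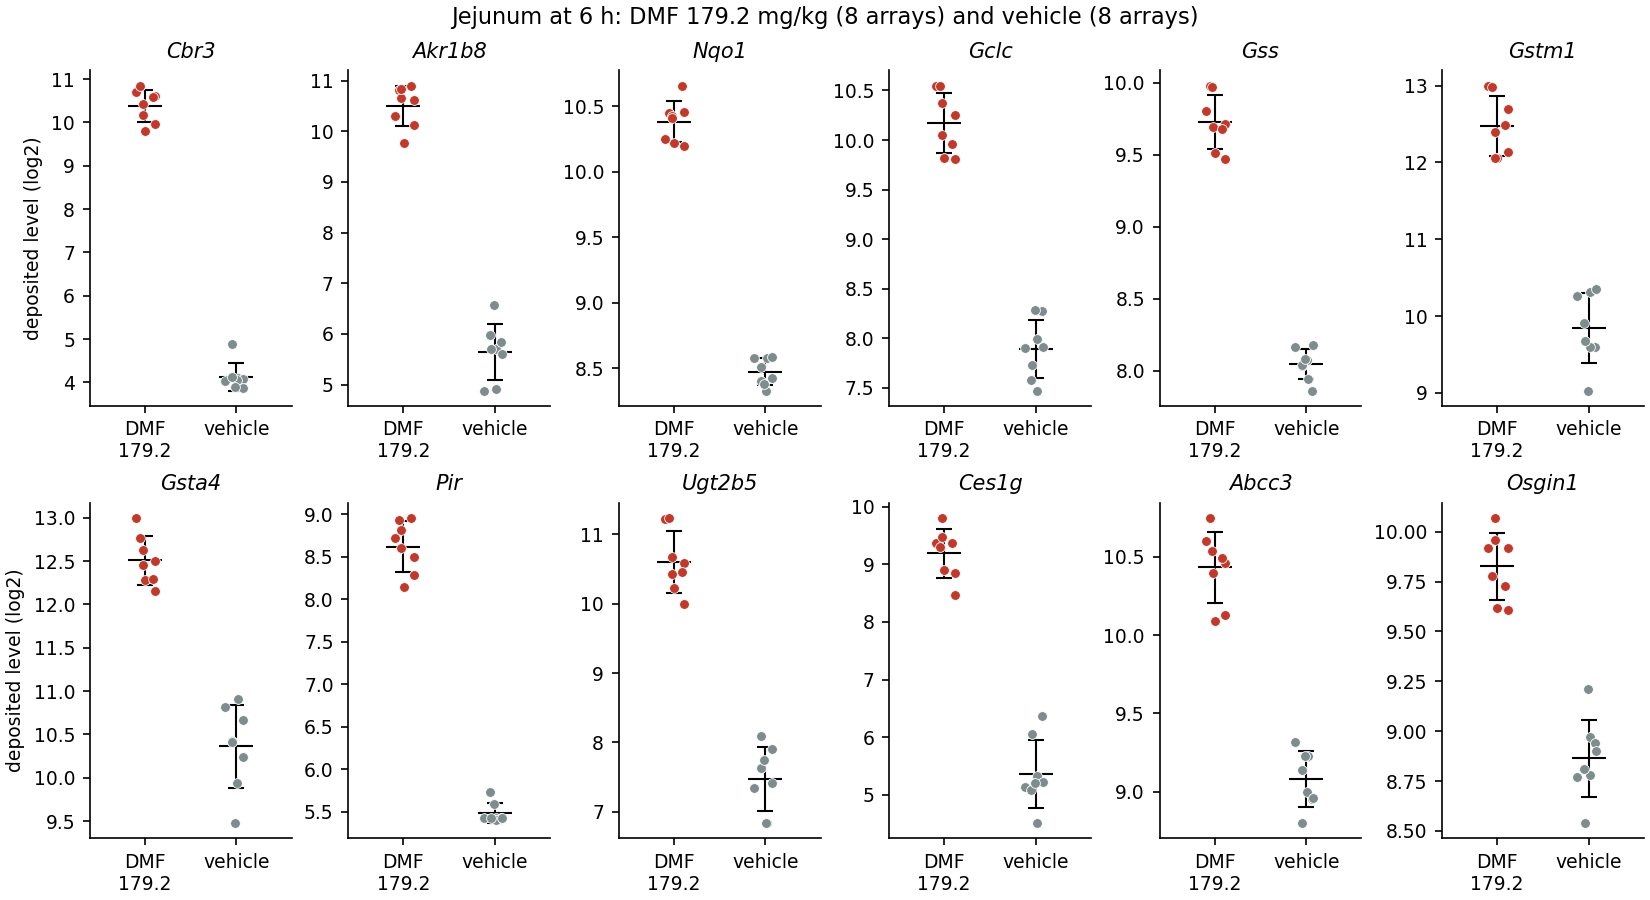
Deposited log2 level of 12 genes on each array, DMF 179.2 mg/kg (8 arrays, red) left of vehicle (8 arrays, grey), with the mean and SD in black; each panel has its own axis, which does not start at 0. All DMF 179.2 mg/kg arrays sit above all vehicle arrays in every panel.

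Quinone and carbonyl reductases gave the largest rises, with 9 of 18 measured members called higher and 0 lower (median log2 change 0.27). Cbr3, a carbonyl reductase, read 9.79 to 10.85 (median 10.5) with DMF 179.2 mg/kg and 3.87 to 4.89 (median 4.06) with vehicle. No array of either group came near the other group, and the log2 change was 6.25 ± 0.32 (FDR 2.32e-25), or 76.1-fold. Akr1b8, an aldo-keto reductase of the small intestine, read 9.76 to 10.90 with DMF 179.2 mg/kg and 4.88 to 6.58 with vehicle, 28.8-fold higher (log2 change 4.85 ± 0.25, FDR 6.42e-25). Akr1c19, an aldo-keto reductase of another subfamily, was 9.69-fold higher (3.28 ± 0.20, FDR 1.16e-21), and its relatives Akr1c13 and Akr1c12 rose by 3.17-fold and 2.58-fold. The probe set tested for Akr1c12 is of the kind that can read several transcripts, and another of its probe sets, not of that kind, rose by 1.19 on the log2 scale. Nqo1, the quinone reductase used as a marker of NRF2 activity, read 10.22, 10.20, 10.25, 10.46, 10.45, 10.43, 10.66 and 10.41 with DMF 179.2 mg/kg, and 8.58, 8.58, 8.43, 8.33, 8.40, 8.59, 8.51 and 8.38 with vehicle. That is a 3.76-fold rise with very little spread in either group (1.91 ± 0.10, FDR 2.32e-25). Cbr1, the general carbonyl reductase, was 2.31-fold higher (1.21 ± 0.13, FDR 1.14e-10), and each of these 7 genes was also called within the shared places. Nqo2, the related quinone reductase, averaged a log2 change of 0.05 ± 0.06 (FDR 0.775), and Ptgr1, a reductase of prostaglandins and enals, one of 0.23 ± 0.21 (FDR 0.644).

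Among aldehyde dehydrogenases and oxidases 5 of 16 were called higher and 0 lower (median 0.16), and 3 within the shared places. Aldehyde oxidase Aox1 read 6.11 to 7.35 with DMF 179.2 mg/kg and 3.99 to 6.18 with vehicle, and the ranges overlapped (log2 change 1.48 ± 0.25, FDR 1.62e-05). The retinal dehydrogenases and their relatives did not overlap: Aldh1a7 was 2.24-fold higher (1.17 ± 0.12, FDR 4.4e-12) and Aldh1a1 1.76-fold higher (0.81 ± 0.12, FDR 3.99e-07).

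Glutathione, the thiol that electrophiles consume, is made in 2 steps that both moved. Of 20 measured genes of glutathione synthesis and recycling 7 were called higher and 0 lower (median 0.16). Gclc, the catalytic subunit of the rate-limiting ligase, read 9.82, 9.81, 10.55, 10.25, 10.55, 10.37, 9.96 and 10.05 with DMF 179.2 mg/kg, and 7.99, 7.90, 8.27, 7.47, 7.73, 7.91, 7.58 and 8.28 with vehicle, a 4.85-fold rise (log2 change 2.28 ± 0.13, FDR 2.62e-22). Its modifier subunit Gclm read 9.85 to 10.48 with DMF 179.2 mg/kg and 8.69 to 9.70 with vehicle, 1.97-fold higher (0.98 ± 0.14, FDR 2.5e-07). Gss, the synthetase of the second step, read 9.47 to 9.98 with DMF 179.2 mg/kg and 7.86 to 8.18 with vehicle, 3.21-fold higher (1.68 ± 0.10, FDR 1.64e-21). Cth, which makes the cysteine that glutathione needs, rose by 0.49 ± 0.08 (FDR 8.97e-06), and glutathione reductase Gsr by 0.33 ± 0.06 (FDR 6.89e-05), although Gsr was not called within the shared places. The remaining calls, glutathione peroxidases Gpx2 (0.42, FDR 0.0321) and Gpx4 (0.26, FDR 0.0307), were lost within the shared places. The Gpx2 call was also lost without any 1 of DMF 179.2 mg/kg arrays 71, 73 and 74 or vehicle arrays 51, 52, 54, 56 and 57 (FDR up to 0.104). The Gpx4 call was lost without any 1 of DMF 179.2 mg/kg arrays 67, 69 and 71 or vehicle arrays 52, 53, 55 and 57 (FDR up to 0.0846). The cystine carrier Slc7a11 was at the floor, with 2.16 in DMF 179.2 mg/kg arrays and 2.15 in vehicle arrays.

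Glutathione S-transferases, which join glutathione to electrophiles, had 12 of 18 called higher and 0 lower, with a median log2 change of 0.50. Gstm1 read 12.06 to 13 with DMF 179.2 mg/kg and 9.03 to 10.35 with vehicle, 6.2-fold higher (2.63 ± 0.26, FDR 4.91e-12). Gsta4, the alpha-class enzyme with a preference for lipid aldehydes, read 12.15 to 13 with DMF 179.2 mg/kg and 9.48 to 10.91 with vehicle, 4.43-fold higher (2.15 ± 0.19, FDR 1.23e-13). Gsta2 (5.21-fold) and Gstm3 (2.84-fold) did not overlap between the groups either. The probe sets of Gstm1, Gsta2 and Gstm3 carry identifiers of the kind that can read several transcripts, so members of these families were not separable there. Bright enzymes moved by smaller steps: Gstp1, the pi-class enzyme, read 13.52 to 13.67 with DMF 179.2 mg/kg and 13.04 to 13.31 with vehicle (0.41 ± 0.04, FDR 3.36e-13), and the microsomal Mgst2 rose by 0.56 ± 0.05 (FDR 7.51e-13). Gsto1, the omega-class enzyme, gave 0.10 ± 0.05 (FDR 0.237) and Gstk1, the mitochondrial enzyme, 0.41 ± 0.17 (FDR 0.124).

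Within the DMF 179.2 mg/kg group, Gstm4 separated by array: it read 6.60, 6.88, 9.0, 8.56, 9.21, 7.29, 7.60 and 7.2 for running numbers 67 to 74, against 5.02 to 5.88 with vehicle (log2 change 2.40 ± 0.43, FDR 8.15e-05). The 3 highest of these arrays, 69, 70 and 71, are the 3 with the lowest Fabp6, at 3.46, 4.98 and 3.4. The same 3 arrays had the highest Gstm1 (13, 12.7 and 12.98) and the highest Gclm (10.40, 10.42 and 10.48) of their group. Not all called genes followed this order: Nqo1 was highest on array 73, and Ces1g was highest on array 72 and lowest on array 70. Among vehicle arrays the lowest Fabp6, 4.07 and 5.15, went with Gstm4 of 5.84 and 5.88, the highest of that group. These are levels per array, and the part of the segment in them was not tested.

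In the thioredoxin and peroxiredoxin system 6 of 14 genes were called higher and 1 lower (median 0.11), in small steps. Thioredoxin reductase Txnrd1 read 12.79 to 12.94 with DMF 179.2 mg/kg and 12.41 to 12.53 with vehicle, a 1.34-fold rise without overlap (0.42 ± 0.03, FDR 8.34e-20). It was the 1 member also called higher within the shared places. Txnip, the inhibitor of thioredoxin, read 11.34 to 11.80 with DMF 179.2 mg/kg and 11.85 to 12.28 with vehicle, without overlap, and fell by 0.41 on the log2 scale (SE 0.09, FDR 0.00154), also within the shared places (−0.52). Sulfiredoxin Srxn1, a further NRF2 target, gave 0.18 ± 0.05 (FDR 0.0164) and lost its call in the fit of the 6 h groups alone, within the shared places and after quantile normalization.

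NADPH feeds these reductases, and 4 of 11 genes of its supply were called higher and 0 lower (median 0.12). Pgd, a dehydrogenase of the pentose phosphate pathway, read 12.12 to 12.57 with DMF 179.2 mg/kg and 11.42 to 11.79 with vehicle, 1.71-fold higher (0.77 ± 0.07, FDR 1.64e-13). Malic enzyme Me1 was 2.32-fold higher (1.22 ± 0.29, FDR 0.00371), although 1 vehicle array reached 10.43 and the other 7 stayed at 8.64 or lower. It lost its call in the fit of the 2 groups alone. Transketolase Tkt (0.18 ± 0.03, FDR 4.13e-06) and isocitrate dehydrogenase Idh1 (0.26 ± 0.05, FDR 0.000169) rose by less and were not called within the shared places.

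For heme and iron 5 of 14 genes were called higher and 0 lower (median 0.29), and 3 within the shared places. Pir, the iron-binding protein pirin, read 8.14 to 8.96 with DMF 179.2 mg/kg and 5.40 to 5.73 with vehicle. Its 8.79-fold rise had the lowest adjusted p of the genes described here (log2 change 3.14 ± 0.14, FDR 1.25e-27). Biliverdin reductase Blvrb was 2.13-fold higher (1.09 ± 0.12, FDR 6.23e-11), and the ferritin light chain Ftl1 1.39-fold higher (0.47 ± 0.05, FDR 5.43e-12). Heme oxygenase Hmox1, often taken as an NRF2 marker, read 3.68, 3.55, 3.68, 3.68, 3.73, 4.90, 4.71 and 3.87 with DMF 179.2 mg/kg, and 2.79, 3.68, 3.78, 3.38, 3.38, 3.68, 3.47 and 3.68 with vehicle. The groups overlapped, and the change of 0.50 ± 0.17 did not pass the test (FDR 0.0616). It passed without DMF 179.2 mg/kg array 67 (0.54, FDR 0.0488) or array 68 (0.56, FDR 0.0373), and was 0.10 (FDR 1.0) within the shared places.

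Conjugation and hydrolysis of drugs moved in selected members. Of 15 genes of glucuronidation, sulfation and epoxide hydrolysis 7 were called higher and 0 lower (median 0.27). The glucuronosyltransferases Ugt2b5 (9.99 to 11.24 with DMF 179.2 mg/kg and 6.84 to 8.10 with vehicle) and Ugt2b35 (10.31 to 11.25 and 7.91 to 8.85 in the same order) were 8.74-fold and 5.89-fold higher. Their FDR was 9.12e-18 for Ugt2b5 and 8.5e-18 for Ugt2b35. Ugdh, which makes the glucuronic acid donor, rose by 0.66 ± 0.07 (FDR 1.3e-10), and the epoxide hydrolase Ephx1 by 1.03 ± 0.14 (FDR 9.84e-08).

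Carboxylesterases, the enzymes that cleave ester drugs, gave 3 called higher of 12 and 0 lower (median 0.10), and all 3 belong to the Ces1 group. Ces1g read 8.91, 8.85, 9.38, 8.46, 9.30, 9.81, 9.37 and 9.48 with DMF 179.2 mg/kg, and 5.32, 5.13, 6.37, 4.51, 6.05, 5.22, 5.09 and 5.20 with vehicle, 14.3-fold higher (log2 change 3.84 ± 0.33, FDR 1.7e-14). Ces1f was 7.86-fold higher (2.97 ± 0.22, FDR 1.66e-17) by a probe set of the kind that can read several transcripts, and Ces1e 4.56-fold higher (2.19 ± 0.27, FDR 9.22e-09). Ces1d of the same group gave 0.45 ± 0.29 (FDR 0.408), and the intestinal esterases Ces2a and Ces2e gave 0.12 ± 0.13 (FDR 0.727) and 0.05 ± 0.05 (FDR 0.741).

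Efflux pumps of the ABC family showed 7 called higher and 1 lower of 13 (median 0.48). Abcc3, the basolateral pump for glucuronides, read 10.09 to 10.75 with DMF 179.2 mg/kg and 8.80 to 9.32 with vehicle, 2.56-fold higher (1.35 ± 0.11, FDR 1.49e-15). Abcc2, its apical counterpart, was 1.90-fold higher (0.93 ± 0.14, FDR 2.53e-06), and Abcc1, which exports glutathione conjugates, 1.5-fold higher (0.58 ± 0.08, FDR 1.71e-07). These 3 were the members called within the shared places. The probe set of Abcc2 is of the kind that can read several transcripts. Abcg2, an apical exporter, was the lower one (−0.30 ± 0.10, FDR 0.0332). Its call was lost with place as a covariate, within the shared places, and without any 1 of DMF 179.2 mg/kg arrays 69 to 73 or vehicle arrays 53, 54 and 58 (FDR up to 0.0927). Of 24 cytochrome P450 genes 4 were at the floor on all 16 arrays. None of the 24 was called by limma (median 0.11, highest change 0.55), where 8.62% of all genes were called in either direction. With Fabp6 as a covariate 2 were called higher, and in the fit of the 6 h groups 1. Values were, for example, Cyp3a11 (0.13 ± 0.20, FDR 0.887), Cyp2b10 (0.34 ± 0.59, FDR 0.92) and Cyp2c55 (0.36 ± 0.28, FDR 0.518).

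**Figure D3:**
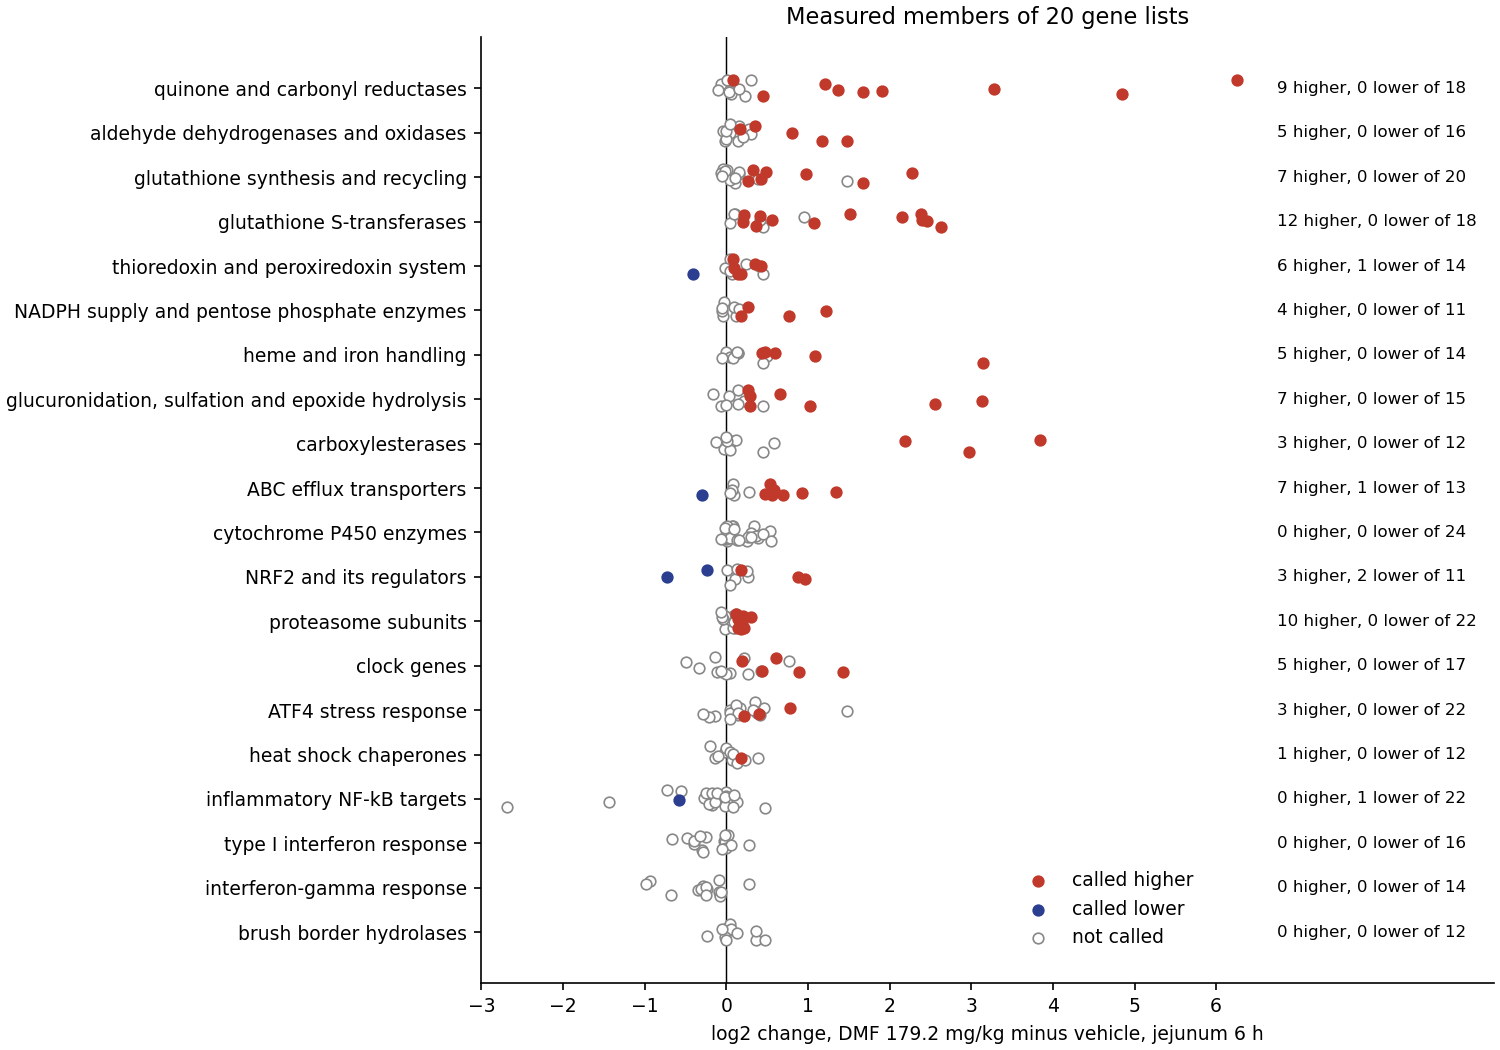
Log2 change, DMF 179.2 mg/kg minus vehicle (horizontal axis), of each measured member of 20 gene lists, 1 point per gene with random vertical scatter, filled red where called higher, filled blue where called lower and open where not called. The rises beyond 2 log2 units lie in the lists of reductases, glutathione enzymes, heme handling, glucuronidation and carboxylesterases, while the P450, interferon and brush border lists hold no called gene.

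Of 11 measured genes of NRF2 and its regulators, 3 were called higher and 2 lower, where 5.60% and 3.01% of all genes were. The mRNA of NRF2 itself, Nfe2l2, read 10.99 to 11.40 with DMF 179.2 mg/kg and 10.72 to 11.45 with vehicle (0.01 ± 0.10, FDR 1.0). The small MAF partner Mafg read 9.17 to 9.47 with DMF 179.2 mg/kg and 8.04 to 8.65 with vehicle, 1.84-fold higher (0.88 ± 0.09, FDR 5.09e-12). Osgin1, an oxidative stress induced gene, read 9.61 to 10.07 with DMF 179.2 mg/kg and 8.54 to 9.21 with vehicle, 1.95-fold higher (0.96 ± 0.11, FDR 2.25e-09). Both kept their calls within the shared places. The repressor Bach2 fell by 0.72 on the log2 scale (SE 0.16, FDR 0.0017) and was not called within the shared places (−0.59). Nfe2l1, a relative of NRF2, was the other lower gene (−0.23 ± 0.08, FDR 0.047). Its call was lost in the fits of the 2 groups and of the 6 h groups, with place as a covariate, within the shared places, and without any 1 of DMF 179.2 mg/kg arrays 69 to 74 or vehicle arrays 51, 53, 54 and 55 (FDR up to 0.135). Cul3, the scaffold of the ubiquitin ligase that KEAP1 serves, was the third higher gene (0.18 ± 0.05, FDR 0.00517). It lost its call with place as a covariate and within the shared places, and was −0.03 (FDR 0.859) by the mean of all probe sets. Hcar2, the receptor through which monomethyl fumarate acts on immune cells, read 2.15, the floor to 2 decimals, on all 16 arrays.

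Proteasome subunits were called higher in 10 of 22 and lower in 0, by 0.12 to 0.30 on the log2 scale (median of all 22, 0.12). Of all genes 5.60% were called higher. The catalytic subunit Psmb5 read 11.83 to 11.95 with DMF 179.2 mg/kg and 11.36 to 11.75 with vehicle and was the 1 member without overlap (0.30 ± 0.04, FDR 2.09e-07). The core subunits Psma3 (0.18) and Psma7 (0.16) and the ubiquitin receptor Psmd4 (0.22) also kept their calls with place as a covariate and within the shared places. The count was 5 with place as a covariate, 4 within the shared places, 7 after quantile normalization and 6 without DMF 179.2 mg/kg array 74.

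Clock genes were called higher in 5 of 17 and lower in 0 (median 0.19), where 5.60% of all genes were called higher. Per1, a repressor of the clock loop that also responds to hormones, read 6.13, 5.40, 6.45, 6.08, 5.76, 6.21, 6.09 and 5.09 with DMF 179.2 mg/kg, and 4.92, 3.86, 3.90, 4.12, 4.34, 3.70, 5.90 and 5.06 with vehicle. The groups overlapped through vehicle array 57, and the log2 change was 1.43 ± 0.29 (FDR 0.000524), against 1.27 within the shared places, where it was not called (FDR 0.125). Ciart, another repressor, rose by 0.61 ± 0.13 (FDR 0.00137) and kept its call within the shared places, but not in the fit of the 2 groups (FDR 0.0528) or of the 6 h groups (FDR 0.0515). Per2 gave −0.05 ± 0.23 (FDR 1.0) and Cry1 −0.11 ± 0.12 (FDR 0.734). The count was 3 without any 1 of DMF 179.2 mg/kg array 69 and vehicle arrays 52, 53, 54 and 57, and 2 within the shared places, in the fits of the 2 groups and of the 6 h groups, and by the mean of all probe sets. After quantile normalization it was 3. The times of day at which mice were dosed and tissues taken are not given in the sources used here.

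Of 22 ATF4 stress genes 3 were called higher (5.60% of all genes were), among them asparagine synthetase Asns (0.78 ± 0.15, FDR 0.000273), and 0 were called higher in the fit of the 2 groups alone and within the shared places. The count was 1 in the fit of the 6 h groups, 5 with Fabp6 as a covariate, 5 without DMF 179.2 mg/kg array 70 and 8 without vehicle array 58. Of 12 heat shock chaperones 1 was called higher, Hspa4 (0.18 ± 0.04, FDR 0.00162), which was not called within the shared places or by the mean of all probe sets. Of 17 chaperones of the endoplasmic reticulum 2 were called lower (3.01% of all genes were). That count was 0 with place as a covariate, and 1 within the shared places and without any 1 of DMF 179.2 mg/kg arrays 67, 69, 71 and 73 or vehicle arrays 51, 53 and 58. The inducible heat shock gene Hspa1b gave −0.14 ± 0.21 (FDR 0.861).

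Counts for inflammatory and interferon genes were near the shares over all genes, 5.60% higher and 3.01% lower. Of 22 inflammatory NF-kB targets 1 was called lower, the feedback inhibitor Tnfaip3 (−0.58 ± 0.18, FDR 0.0338), and 0 higher (median −0.13). Its call was lost with place as a covariate, within the shared places, and without any 1 of DMF 179.2 mg/kg arrays 70, 71 and 73 or vehicle arrays 54 and 57 (FDR up to 0.129). The lower count of the list was 2 without vehicle array 53 and 3 without vehicle array 56. Log2 changes in the list ran from −2.68 to 0.48, and the member with the lowest was not called. Nitric oxide synthase Nos2 read 3.60 to 4.16 (median 3.81) with DMF 179.2 mg/kg and 3.60 to 7.03 (median 5.12) with vehicle and did not pass the test (−1.44 ± 0.55, FDR 0.0896). Of 16 type I interferon genes and 14 interferon-gamma genes 0 were called by limma, with medians of −0.15 and −0.25.

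Counts for absorption genes were also near the shares over all genes. Of 12 brush border hydrolases 0 were called (median 0.02), and of 24 genes of lipid absorption 1 was called higher and 1 lower. The higher call was lost without any 1 of DMF 179.2 mg/kg array 73 and vehicle arrays 52 and 53, and neither was kept within the shared places. Of 15 carriers of sugars, peptides and amino acids 1 was called higher and 1 lower. Slc7a9, a subunit of the cystine and basic amino acid carrier, read 11.73 to 12.0 with DMF 179.2 mg/kg and 11.81 to 12.22 with vehicle (−0.17 ± 0.04, FDR 0.00759). No single array ended its call, which was lost in the fit of the 2 groups alone and within the shared places. The higher one, Slc5a4b, a member of the sodium-glucose carrier family, read 11.59 to 12.21 with DMF 179.2 mg/kg and 9.55 to 11.09 with vehicle, without overlap (1.42 ± 0.46, FDR 0.0357). Its call was lost with place as a covariate, within the shared places, and without any 1 of DMF 179.2 mg/kg arrays 69, 70, 71 and 73 or vehicle arrays 53 and 55 (FDR up to 0.0835). Metallothioneins and zinc transporters, a separate list, had 3 of 12 called higher and 1 lower, where 5.60% and 3.01% of all genes were. The higher count was 1 without any 1 of DMF 179.2 mg/kg arrays 69 and 71 or vehicle arrays 53 and 55. The exporter Slc30a1 was called lower (−0.87 ± 0.18, FDR 0.000534), and the apical importer Slc39a4 read 10.85 to 11.22 with DMF 179.2 mg/kg and 10.43 to 10.84 with vehicle (0.40 ± 0.09, FDR 0.0024). Neither was called within the shared places. Metallothionein Mt1 gave −0.18 ± 0.17 (FDR 0.654).

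The 12 lowest changes among the brighter genes kept fewer calls than the highest when place was taken into account. The highest had log2 changes of 2.28 to 6.25, so the lowest were also smaller in size. The part of size in the calls kept was not tested. The 12 lowest were Apob, Pfkfb3, Pard3, Ptk6, Cbl, Ceacam1, Nr2c2, Slfn2, Slc30a1, Agpat4, Ier5 and Gsdmc2, with log2 changes of −1.28 to −0.78. Of these 1 did not overlap between the groups, 7 were called with place as a covariate, and 1 within the shared places, against all 12 of the highest in each case. That 1 was Ier5, an immediate early gene, which read 5.65 to 6.77 with DMF 179.2 mg/kg and 6.69 to 7.67 with vehicle and kept its size (−0.82 ± 0.16, FDR 0.000234 over all 16 arrays, and −0.78, FDR 0.0407 within the shared places). Apob, the structural protein of chylomicrons, read 9.98, 10.12, 9.90, 10.01, 9.82, 9.0, 8.78 and 7.81 with DMF 179.2 mg/kg, and 11.21, 11.20, 10.68, 10.91, 10.42, 10.74, 10.38 and 10.14 with vehicle. Its change was −1.28 ± 0.34 (FDR 0.00791) over all arrays, −0.59 with place as a covariate and −0.41 (FDR 0.946) within the shared places.

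Tra2b moved in the same way: it read 4.56 to 6.23 with DMF 179.2 mg/kg and 6.59 to 8.05 with vehicle, without overlap (−1.71 ± 0.34, FDR 0.000388). It gave −1.10 with place as a covariate, where it was called, and −0.83 within the shared places, where it was not. Of 14 splicing regulators it was the 1 called, and not within the shared places. Pfkfb3, which makes an activator of glycolysis, gave −1.10 ± 0.29 over all arrays (FDR 0.00875) and −0.61 within the shared places (FDR 0.654), and the cell polarity scaffold Pard3 −1.07 ± 0.27 (FDR 0.00508) and −0.16 (FDR 1.0). Ceacam1, an adhesion receptor of the epithelium, gave −0.93 ± 0.18 (FDR 0.000169) and −0.57 (FDR 0.31), and the ubiquitin ligase Cbl −1.03 ± 0.23 (FDR 0.00141) and −0.34 (FDR 0.834). The probe sets tested for Ceacam1 and Agpat4 are of the kind that can read several transcripts. Of their probe sets not of that kind, that of Ceacam1 changed by −0.97. That of Agpat4 changed by −0.08, at 3.64 with DMF 179.2 mg/kg and 3.72 with vehicle. The tyrosine kinase Ptk6 (FDR 0.0382) lost its call without any 1 of DMF 179.2 mg/kg arrays 67, 69, 70, 71 and 72 or vehicle arrays 53, 55 and 58 (FDR up to 0.124). Gsdmc2, of the pore-forming gasdermin family (FDR 0.0327), lost it without DMF 179.2 mg/kg array 69 or 71 or vehicle array 54, 55 or 56 (FDR up to 0.125). Slfn2 (FDR 0.0158) lost it without vehicle array 54 (FDR 0.0639).

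**Figure D4:**
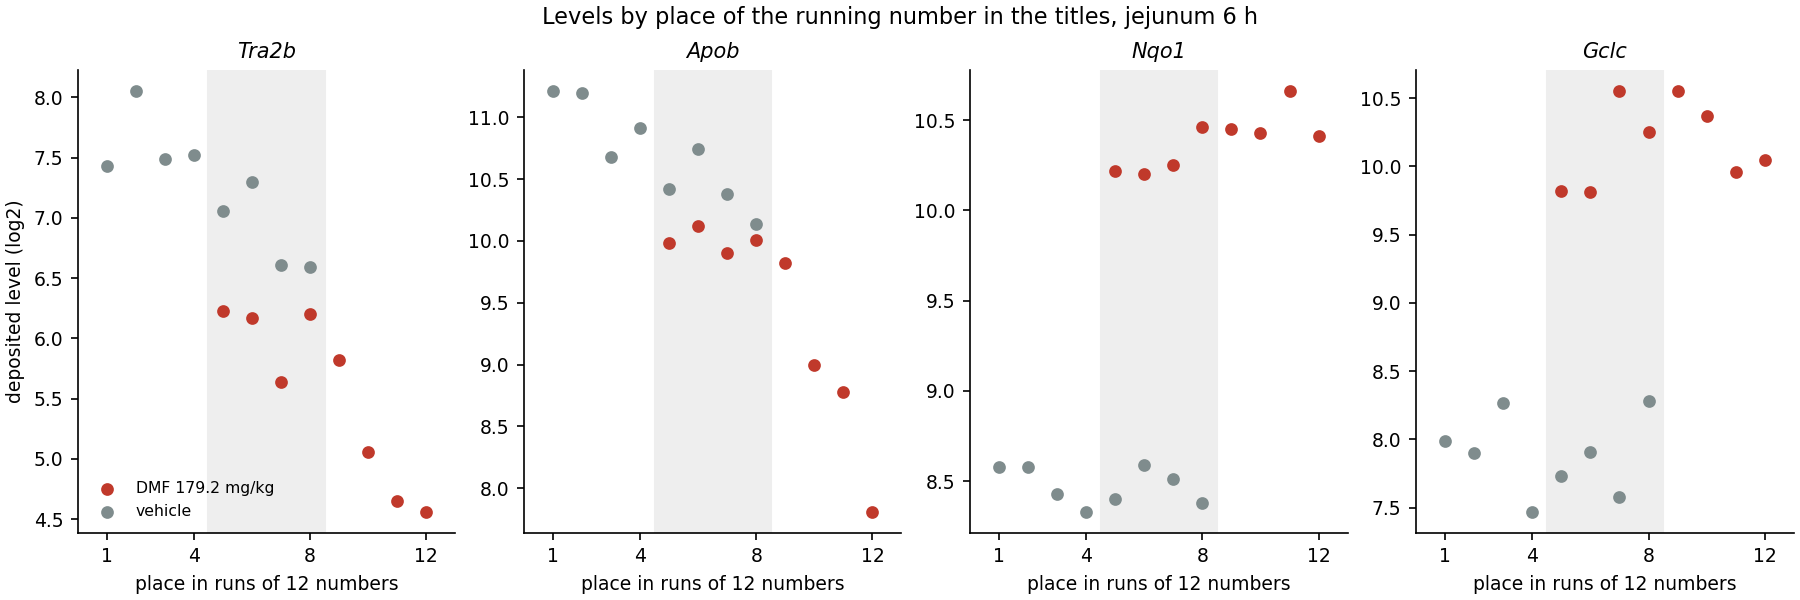
Level (log2) of Tra2b, Apob, Nqo1 and Gclc on each array by the place of its running number in runs of 12 (horizontal axis), DMF 179.2 mg/kg in red and vehicle in grey, with the shared places 5 to 8 shaded. Tra2b and Apob decline along the places inside both groups, while Nqo1 and Gclc differ by 1.91 and 2.28 over all arrays and by 1.81 and 2.23 inside the shading.

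The lower dose at the same time gives a second comparison, in which the arrays of the 2 groups do not all hold the same places. DMF 179.2 mg/kg against DMF 100 mg/kg gave 28 genes called higher (0.164%) and 26 lower (0.152%). Gclc read 9.81 to 10.55 with DMF 179.2 mg/kg and 8.61, 8.40, 8.86 and 9.5 with DMF 100 mg/kg, without overlap (log2 change 1.33 ± 0.16, FDR 2.77e-07). Pir averaged 8.62 ± 0.30 with DMF 179.2 mg/kg (SD, n = 8) and 7.80 ± 0.56 with DMF 100 mg/kg (SD, n = 4), a change of 0.82 ± 0.18 by limma (FDR 0.0134). Cbr3 read 8.72, 7.62, 8.68 and 10.08 with DMF 100 mg/kg, and all but 1 of these arrays lay below the DMF 179.2 mg/kg range of 9.79 to 10.85 (1.60 ± 0.39, FDR 0.0437). Ugt2b5 was also higher (1.24 ± 0.28, FDR 0.0231). For Nqo1 the change was 0.31 (FDR 0.305), for Akr1b8 0.45 (FDR 0.815) and for Abcc3 0.03 (FDR 1.0), so no difference between doses passed the test there.

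The lowest changes between the doses were Tnfaip3 (−1.0, FDR 0.0231), the chemokine Ccl28 (−0.81, FDR 0.0231), the transporter-like Mfsd4a (−0.80, FDR 0.00232), the Wnt receptor Fzd7 (−0.52, FDR 0.0498) and the transcription factor subunit Nfya (−0.44, FDR 0.00918). Slc6a6, the taurine carrier, was the fifth highest change, at 0.66 (FDR 0.0385). Its DMF 100 mg/kg array 64 read 9.33, against 11.24 to 11.42 on the other 3, and without it the change was 0.15 (FDR 0.705). For this contrast the shared places are 9 to 12, with 4 DMF 179.2 mg/kg arrays and 3 DMF 100 mg/kg arrays. Within them Tnfaip3 (−0.80, FDR 0.233), Ccl28 (−0.68, FDR 0.234), Fzd7 (−0.41, FDR 0.332) and Nfya (−0.33, FDR 0.227) were not called. Slc6a6 was not called there either, at 0.06, while Gclc, Cbr3, Pir, Ugt2b5 and Mfsd4a kept their calls. Few arrays carry this contrast. The count of 54 was 0 in a fit of the 2 groups alone (919 genes at an unadjusted p below 0.05) and 7 in a fit of the 6 h groups. It was 208, 217, 143 and 158 without DMF 100 mg/kg array 59, 60, 61 and 64, and 35, 27, 31 and 102 without DMF 179.2 mg/kg array 68, 71, 72 and 74. Of the 10 genes named for the largest changes, Gclc and Mfsd4a kept the call whichever single array was left out. Without DMF 100 mg/kg array 64 the calls of Tnfaip3 (−0.68, FDR 0.169), Ccl28 (−0.73, FDR 0.0618), Fzd7 (−0.44, FDR 0.135) and Nfya (−0.31, FDR 0.105) were lost as well. Without array 60 those of Cbr3 (1.22, FDR 0.166) and Pir (0.65, FDR 0.0639) were lost, and without array 61 those of Cbr3 (1.57, FDR 0.0613), Pir (0.69, FDR 0.0613) and Ugt2b5 (1.12, FDR 0.0586). Without array 59 those of Ccl28 (FDR 0.0551) and Fzd7 (FDR 0.0728) were lost. Among DMF 179.2 mg/kg arrays, leaving out any 1 of 69 to 73 ended the call of Cbr3 (FDR up to 0.0831), 69 or 71 that of Ugt2b5 (up to 0.0575), 71 that of Tnfaip3 (0.0541), 71 or 72 that of Ccl28 (up to 0.0575), 67, 68, 69, 71 or 72 that of Slc6a6 (up to 0.0711), and 67, 68, 69, 71, 72 or 73 that of Fzd7 (up to 0.1).

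Levels in the remaining 6 h groups are given side by side, since compound and dose both differ. Cbr3 averaged 10.38 ± 0.37 with DMF 179.2 mg/kg, 9.36 ± 0.37 with DMF 100 mg/kg plus MEF salts (n = 5), 5.60 ± 0.31 with MEF salts (n = 5) and 4.13 ± 0.32 with vehicle. Akr1b8 averaged 10.5 ± 0.40, 10.01 ± 0.30, 7.51 ± 0.39 and 5.65 ± 0.55 in these groups. Nqo1 averaged 10.39 ± 0.16, 10.11 ± 0.18, 9.18 ± 0.09 and 8.48 ± 0.10. Gclc averaged 10.17 ± 0.30, 9.02 ± 0.21, 8.02 ± 0.21 and 7.89 ± 0.29. All are SD over the arrays of the group.

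**Figure D5:**
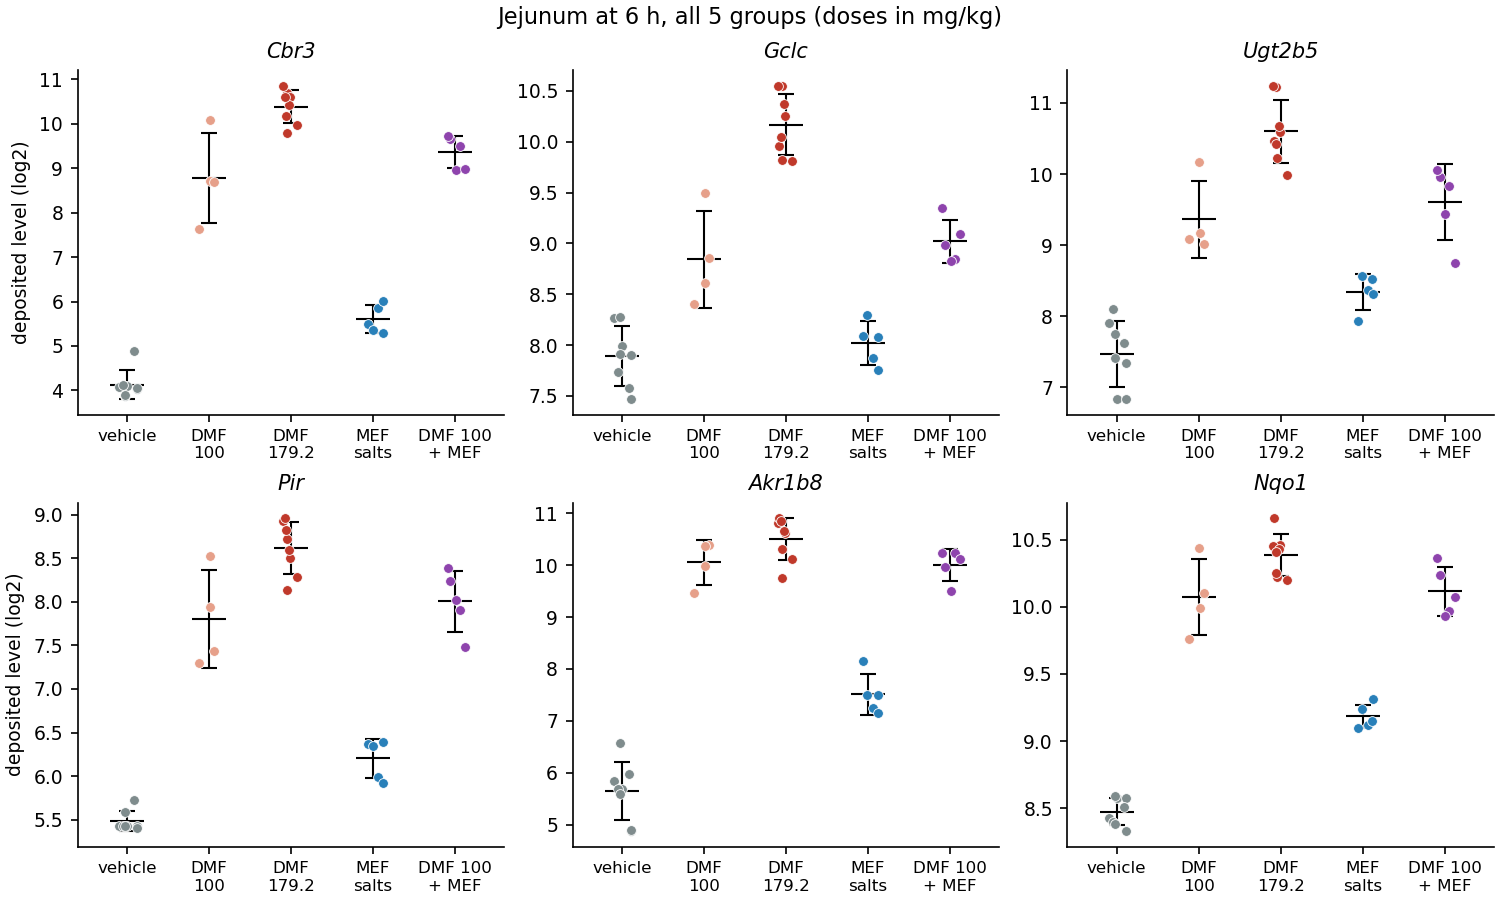
Deposited log2 level of 6 genes on every jejunum array at 6 h, from left to right vehicle (8 arrays), DMF 100 mg/kg (4), DMF 179.2 mg/kg (8), MEF salts 79.2 mg/kg (5) and DMF 100 mg/kg plus MEF salts (5), with the mean and SD in black; axes do not start at 0. Gclc averages 10.17 with DMF 179.2 mg/kg and 8.84 with DMF 100 mg/kg, while Nqo1 averages 10.39 and 10.07 in these groups.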

How the data were processed

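The authors deposited log2 probe set summaries. Tools named are RMA, GCRMA, R 2.11.1 and limma 3.4.5, per the submitters' processing notes, with no role or order. The 76 jejunum arrays were read, and 474 columns of other organs were not used. Arrays of a time share a floor (2.15 log2 at 6 h, with 24.3% of values at it), and their medians lay between 4.63 and 4.74. The number of arrays limits the precision.

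Of 45141 probe sets, 28898 named 1 gene by the platform annotation, 551 several and 15588 none, and 104 were controls. For each of 17097 genes the probe set with the greatest jejunum mean was kept. A linear model with 1 mean per group over all 76 arrays of both times was fitted by limma 3.58.1 (R 4.3.3), 2-sided, with Benjamini-Hochberg adjustment over all genes and calls below 0.05. Tables used pandas 2.3.3 and numpy 2.4.6 under Python 3.11.15, and plots matplotlib 3.10.9. The steps were tested on simulated data. Replicate arrays of a group correlated at 0.991 to 0.998 over genes, and none were identical.

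Named genes are the 12 highest and 12 lowest changes against vehicle, and the 5 highest and 5 lowest against DMF 100 mg/kg, among called genes above the median level, without sex-linked and predicted genes. Members of the fixed lists, and Nqo1, Gclc, Hmox1, Akr1b8, Cbr3, Osgin1, Mt1, Hcar2, Tra2b, Fabp6 and Gata4, may be named as well. Comparison, members and lists were chosen with earlier results of these data known. Promoter windows are from RefSeq (GRCm38.p6).

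Alternatives were a fit of the 2 groups or of the 6 h groups alone, place as a covariate, the shared places, a further quantile normalization, dim genes left out, trend and robust variances, the mean of all probe sets, the probe set chosen at 6 h and leaving out each array. Chosen after seeing the data were Fabp6 as a covariate and leaving out the 4 jejunum arrays, all at 12 h, with a mean of Hoxb6 and Hoxb9 above 6.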

Additional observations from a re-analysis of the deposited data

Results flagged for a closer look

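Of 62 groups of 8 arrays checked for 32 named genes, 4 held an array far from the rest of its group, where chance alone gives about 1 in 20. All 4 lie in the vehicle group. Array 57 had the highest Cbr3, 4.89 against 4.13 for the next. Array 51 had the lowest Hmox1, 2.79 against 3.38. Array 58 had the highest Mt1, 12.39 against 11.64, and the lowest Pard3, 6.62 against 7.54. The change of Cbr3 stayed called without array 57, and Hmox1 and Mt1 were not called with all arrays.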

How the results depend on the processing

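No paired analysis was possible because the groups compared share no running numbers at 6 h. Against vehicle, the 1473 calls became 944 in a fit of the 2 groups alone, 924 in a fit of the 6 h groups and 218 within the shared places, where fewer arrays enter. Leaving out each array gave 1112 to 1537, and the other alternatives stayed within 1.5 times. Against DMF 100 mg/kg, the 54 calls became 0, 7 and 48 in the same order, 109 with place as a covariate and 86 with Fabp6 as a covariate, and leaving out each array gave 27 to 217. The mean of all probe sets turned Clock (−0.06), Cul3 (−0.03) and Sod1 (0.0) from higher, where the cause was not tested. Of 104 higher genes named or listed, 49 kept the call within the shared places and 74 with place as a covariate. Of 27 lower ones 3 and 14 did. Each set was normalized by the authors in ways not given in full in the sources used here, and 24.3% of values lie at the floor, where changes cannot be read.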
